A study of Homo sapiens with 8 samples.

Results

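The genes of the mitochondrial genome were taken as the 37 genes of the deposited table whose names begin with MT-, out of 61906 genes listed. They comprised 13 mRNA genes, 2 rRNA genes and 22 tRNA genes, and all 37 matched an annotated gene of the mitochondrial chromosome by identifier and version. The data came from U251, an established human glioblastoma cell line of wild-type genotype in the labels, used as a single line. Vehicle cultures received DMSO, and treated cultures received LLY-283 at 100 nM, with RNA taken after 24 h in both groups. LLY-283 inhibits PRMT5, the enzyme that places symmetric dimethyl marks on arginine. There were 4 libraries per group, numbered as biological replicates in the labels. Because the labels do not say whether they came from separate cultures, the p-values measure the spread between these libraries only. The values were TPM (a level per transcript length that sums to the same total in each library), which keeps no depth, so no counting error could be given. Of 8 astrocytic and glioblastoma markers, 7 had a mean of at least 1 TPM, among them GFAP at 663 TPM or more in every library and VIM at 4019 TPM or more, whereas OLIG2 did not exceed 0.03 TPM. Their summed level was 7193 to 7365 TPM with vehicle and 6933 to 7289.5 TPM with LLY-283. Within that sum GFAP and SOX2 were lower with LLY-283 (means 809.5 to 679.9 TPM and 103 to 85.6 TPM) and CD44 was higher (1576 to 1699.7 TPM). The means of NES (483 to 429 TPM), VIM (4301 to 4121 TPM) and S100B (4.3 to 3.2 TPM) were also lower, and that of EGFR was higher (23.7 to 24.4 TPM). Of 4 immune markers 1 had a mean of at least 1 TPM (CD68, 0.95 to 2.93 TPM), CD14 and PTPRC did not exceed 0.94 and 0.04 TPM, and CD3E was listed at 0 in all 8 libraries. Of 4 epithelial markers 2 had such a mean (KRT8 and KRT18; summed level 526 to 561 TPM with vehicle and 539 to 627 TPM with LLY-283), and EPCAM did not exceed 0.10 TPM. Of 5 fibroblast markers 3 did (COL1A1, COL1A2 and PDGFRB; 402 to 420.4 TPM and 413 to 422 TPM), with COL1A1 higher with LLY-283 (means 53.9 to 74.9 TPM) and COL1A2 at 356 and 339 TPM, which did not pass the test, and LUM did not exceed 0.04 TPM. Of 4 neuron markers 2 did (MAP2 and SYT1; 23.8 to 27.9 TPM and 23.6 to 24.8 TPM), RBFOX3 not exceeding 0.09 TPM, and of 3 endothelial markers 0 did.

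The human mitochondrial genome is a circle that is copied and transcribed apart from the nucleus. Its heavy strand encodes most genes, and long precursor RNAs are cut at the tRNAs into mRNAs, rRNAs and tRNAs. The mRNAs encode subunits of respiratory complexes I, III and IV and of the ATP synthase (complex V), and the rRNAs build the mitochondrial ribosome. Most mitochondrial mRNAs carry a short poly(A) tail, whereas MT-ND6, the mRNA of the light strand, is known for lacking one. The libraries were made from RNA captured on oligo-dT beads, which is a method that selects RNA by its tail. The levels, ratios and changes given below for MT-ND6 and the rRNAs are therefore those of captured RNA. The part of capture in them was not tested.

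One library stood apart in these genes. The 37 genes together took 10.7%, 10.3%, 10.7% and 10.2% of the TPM in vehicle replicates 1 to 4. They took 11.0%, 10.6% and 10.7% in LLY-283 replicates 1 to 3 and 7.19% in LLY-283 replicate 4. The treated replicates 1 to 3 thus lay within or just above the vehicle range, and replicate 4 lay below all other libraries. The mean share was 10.5% ± 0.288 (SD, n = 4) with vehicle and 9.88% ± 1.80 (SD, n = 4) with LLY-283, and 10.8% ± 0.197 (SD, n = 3) when replicate 4 was left out. Without MT-ATP8 and MT-ND4L, short genes that overlap others, the share was 6.98% ± 0.0980 with vehicle and 6.63% ± 1.07 with LLY-283 (SD, n = 4 each), and 5.03% in replicate 4. The comparisons of the mitochondrial genes below are therefore given with and without LLY-283 replicate 4, or with its value named apart. Other values of that library also lay at the edge of its group. The nuclear long noncoding RNA MALAT1 was at 213 to 236 TPM with vehicle, 100.1 to 112 TPM in LLY-283 replicates 1 to 3 and 54.1 TPM in replicate 4, and cytosolic ribosomal protein genes took 10.9% to 11.4%, 11.3% to 11.6% and 12.3% of the TPM, respectively. The epithelial markers KRT8 and KRT18 were each highest in LLY-283 replicate 4, at 371 and 256 TPM. The part of these differences in the mitochondrial values was not tested.

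Poly(A) tails complete some of these mRNAs. In 6 of the 13 mRNA genes the annotated last codon is incomplete, ending in T or TA. In these the tail supplies the missing bases of the stop codon. MT-ATP6 is annotated with a whole TAA, but its last base, chrM:9207, is also the first base of MT-CO3. It is counted here as annotated. The last 20 bases of 6 genes, read 5′ to 3′ on the coding strand from GRCh38 (GENCODE release 44 gene ends), are shown here with the bases of the last codon in capitals, to set genes with an incomplete stop beside genes with a whole one and beside MT-ND6.
MT-ND1 (chrM:4243-4262, plus strand): agcattccccctcaaaccTA
MT-ND4 (chrM:12118-12137, plus strand): cattaccgggttttcctctT
MT-CYB (chrM:15868-15887, plus strand): caaaatactcaaatgggccT
MT-CO1 (chrM:7426-7445, plus strand): ccgtatacataaaatctAGA
MT-ND5 (chrM:14129-14148, plus strand): ccctactcctaatcacaTAA
MT-ND6 (chrM:14149-14168, minus strand): agattgctcgggggaatAGG
MT-ND6 lies on the strand opposite to the other 12 mRNA genes. Its coding strand holds 7.05% C, against 29.5% to 36.0% C in the 12 heavy-strand mRNAs.
In both cases where a bicistronic mRNA is made, its genes share bases. MT-ATP8 and MT-ATP6 overlap by 46 bases, given here with the start codon of MT-ATP6 and the stop codon of MT-ATP8 in capitals, and MT-ND4L and MT-ND4 overlap by 7 bases, given in capitals with 10 bases on each side.
MT-ATP8 and MT-ATP6 (chrM:8527-8572, plus strand): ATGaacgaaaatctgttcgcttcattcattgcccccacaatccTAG
MT-ND4L and MT-ND4 (chrM:10750-10776, plus strand): acctactccaATGCTAAaactaatcgt
Reads from such shared bases were divided between the genes by the estimation in RSEM, so the values within each pair are uncertain.

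All 22 tRNA genes, 59 to 75 bases long, were listed at 0 in all 8 libraries. This holds for short genes in general in this table: of the 1294 other genes whose longest transcript has 75 bases or fewer, 1 had a value above 0 in any library. The tRNAs, which carry amino acids to the mitochondrial ribosome, were thus not measured, and nothing can be said of their levels. The remaining 15 members, the 13 mRNAs and 2 rRNAs, passed the filter of a mean of at least 1 TPM and entered the comparison with 14478 genes in all.

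The 15 measured members covered a wide range of levels. MT-ATP8, which encodes a small subunit of the ATP synthase and is 207 bases long, was the gene with the highest mean TPM of the whole table, and 7 of the 20 genes with the highest means were mitochondrial. MT-ATP8 was at 325% to 379% of MT-ATP6 with vehicle and at 304% to 344% with LLY-283. Its rank is uncertain, since MT-ATP8 is the shortest measured member and TPM is a level per transcript length. Reads from the 46 of its 207 bases shared with MT-ATP6 were also divided by estimation. The part of either in its level was not tested. In the vehicle libraries MT-ATP8 was at 27822, 24723, 26373 and 23789 TPM. The 3 mRNAs of complex IV, the cytochrome c oxidase, followed and lay close together, with MT-CO2 at 12772 ± 285, MT-CO3 at 11978 ± 156 and MT-CO1 at 11969 ± 226 TPM (SD, n = 4 each), so that MT-CO3 and MT-CO1 did not differ beyond their spread. The mRNAs of complex I, the NADH dehydrogenase, spread from MT-ND4L at 9080.4 ± 792 TPM and MT-ND4 at 7772 ± 173 TPM down to MT-ND5 at 1499 ± 102 TPM and MT-ND6 at 749 ± 40.1 TPM. MT-ND3 (3242 ± 72.5 TPM) and MT-CYB (3239.5 ± 47.6 TPM), the single mRNA of complex III, were at the same level within their spread. Of the rRNAs, the large-subunit MT-RNR2 was at 2639 ± 71.6 TPM and the small-subunit MT-RNR1 at 849 ± 108 TPM. These are levels after capture by the tail, and the 2 rRNAs together were at a mean of 3.45% of the 13 mRNAs with vehicle. Agreement between vehicle libraries was close for most members, with a median coefficient of variation of 2.24%, and the 4 members that varied most were MT-RNR1 (12.7%), MT-ND4L (8.72%), MT-ATP8 (6.95%) and MT-ND5 (6.78%).

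**Figure D1:**
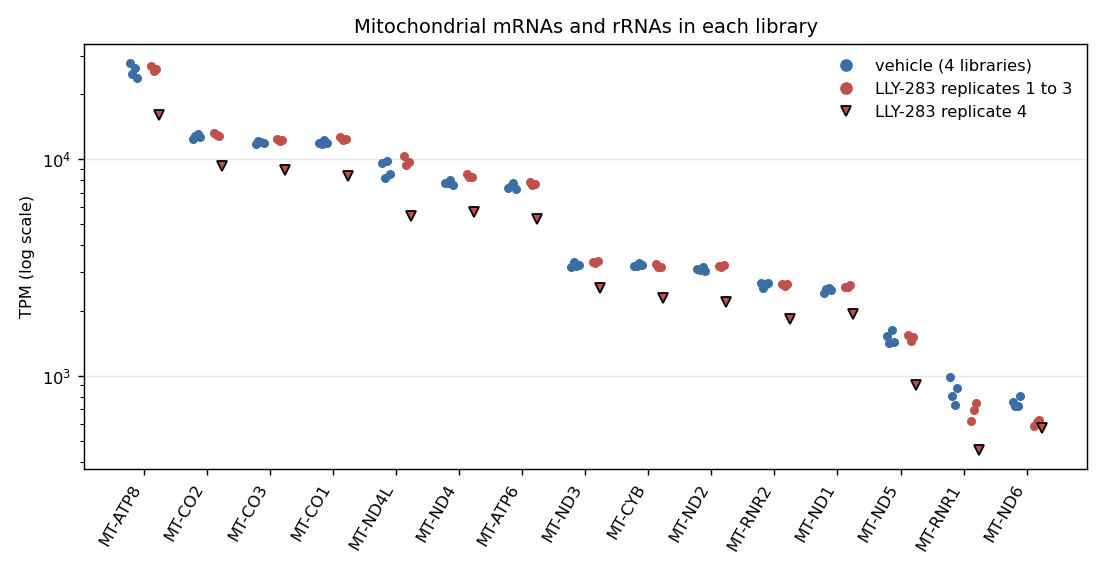
TPM (log scale) of the 15 measured mitochondrial genes in each of the 8 libraries, in order of mean level, with vehicle libraries in blue, LLY-283 replicates 1 to 3 in red and LLY-283 replicate 4 as triangles. LLY-283 replicate 4 is the lowest of the 8 libraries for all 15 genes, and for MT-ND6 it lies close to the other treated libraries.

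LLY-283 was compared with vehicle by limma on log2(TPM + 0.1) over all 14478 genes, with Benjamini-Hochberg adjustment, and a gene was called when its adjusted p-value was under 0.05. Of the 15 members, 2 were called lower (MT-ND6 and MT-RNR1) and 0 were called higher, where 17.6% of all genes tested were called lower and 8.61% higher. After quantile normalization the calls over all genes were 1871 higher and 1820 lower, and after median-of-ratios scaling 1927 higher and 1866 lower, against 1247 and 2541 here. At 2 of 15, the members' share of decreases was close to that background. The fitted change was below 0 for all 15 members, as for 60.2% of all genes, and the log2 fold change (log2FC) had a median of -0.091 over the members and -0.047 over all genes. Without LLY-283 replicate 4, 11 of the 15 fitted changes were above 0, as were 40.7% of all genes, and the median was 0.038 over the members and -0.041 over all genes. In that fit 1 member was called lower (MT-ND6) and 1 higher (MT-ND4), where 18.4% of all genes were lower and 10.4% higher. With all libraries no member was called past 1.5-fold, where 3.48% of all genes were called lower and 0.394% higher at that size. In bulk RNA a lower level per cell and fewer cells that carry the RNA cannot be told apart.

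**Figure D2:**
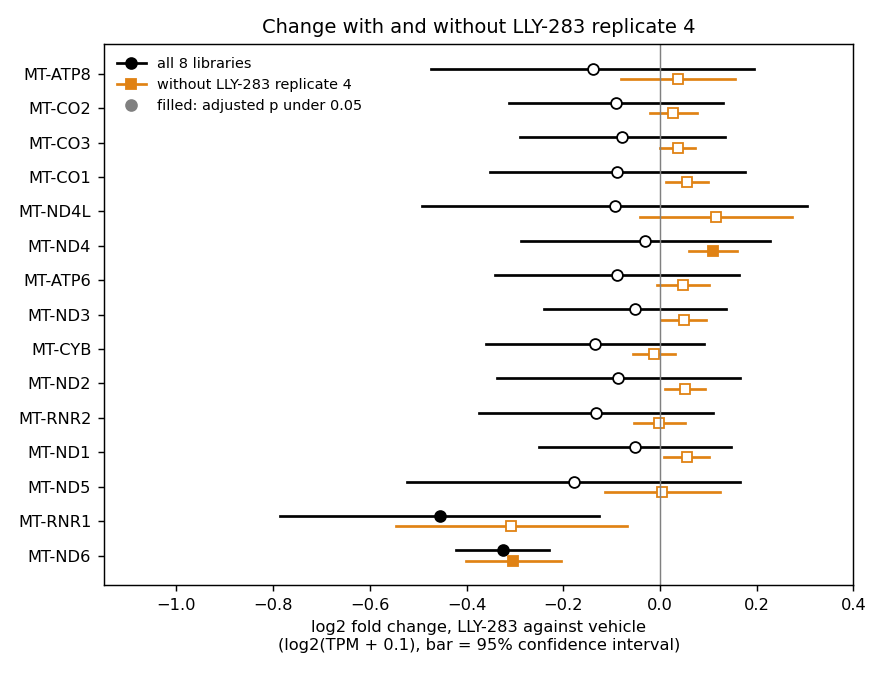
Log2 fold change of LLY-283 against vehicle for the 15 measured members, with bars for the 95% confidence interval, in all 8 libraries (black circles) and without LLY-283 replicate 4 (orange squares); filled symbols have an adjusted p-value under 0.05 (limma). Leaving out the replicate moves 11 of the 15 values above 0 and narrows their intervals, while MT-ND6 is at -0.33 with it and -0.30 without it.

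MT-ND6 encodes a membrane subunit of complex I and is the only mRNA of the light strand (ENSG00000198695, chrM:14149-14673, minus strand, 1 exon). Its level was 753, 719.6, 720.3 and 805 TPM in the vehicle libraries and 586, 613, 622 and 570.2 TPM in the LLY-283 libraries. All 4 treated values lay below all 4 vehicle values, which held for 1 of the 15 members and 19.6% of the genes tested. The reverse held for 0 members and 9.63% of the genes. The mean of MT-ND6 fell by 20.2%, from 749 ± 40.1 TPM to 598 ± 23.9 TPM (SD, n = 4 each). Its log2FC was -0.33, with a standard error (SE) of 0.0430 and a 95% confidence interval of -0.42 to -0.23 (adjusted p = 0.000791, limma). Without LLY-283 replicate 4 the log2FC was -0.30 (adjusted p = 0.00179), and the call held in all 18 alternatives. The protocol in the labels does not state whether the counting used strand. Without strand, MT-ND6 cannot be told apart from heavy-strand RNA that runs antisense to it.

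Set against the heavy-strand mRNAs of the same library, MT-ND6 separated the treated replicates. As a share of the summed TPM of the other 12 mRNAs, it was 0.737%, 0.730%, 0.697% and 0.828% in vehicle replicates 1 to 4. In LLY-283 replicates 1 to 3 the share was 0.552%, 0.600% and 0.602%, below all vehicle libraries, and in LLY-283 replicate 4 it was 0.825%, within the vehicle range. Replicate 4 thus combined low heavy-strand mRNAs with an MT-ND6 level close to that of the other treated libraries. Against the nearest mRNA genes on either side, LLY-283 replicates 1 to 3 again lay below all vehicle libraries, whereas replicate 4 lay above them. Against MT-ND5, which ends at the base before it, MT-ND6 was 44.1% to 56.3% in vehicle, 37.9% to 42.4% in LLY-283 replicates 1 to 3 and 63.2% in replicate 4. Against MT-CYB it was 21.8% to 24.7% in vehicle, 17.9% to 19.5% in LLY-283 replicates 1 to 3 and 24.9% in replicate 4. Sums over the members are given as a description, without a test.

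**Figure D3:**
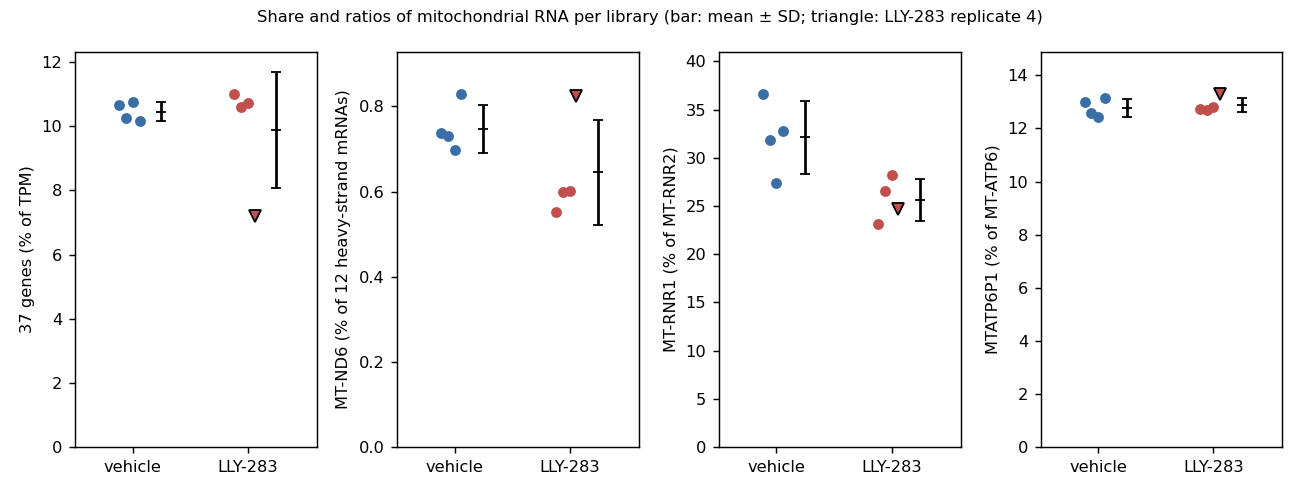
Per library, the share of TPM in the 37 mitochondrial genes, MT-ND6 as a percentage of the 12 heavy-strand mRNAs, MT-RNR1 as a percentage of MT-RNR2, and the nuclear copy MTATP6P1 as a percentage of MT-ATP6, with the mean ± SD of each group of 4 beside the points and LLY-283 replicate 4 as a triangle. Replicate 4 is low in the first panel (7.19%) and at the vehicle level in the second (0.825%), and the ratio of copy to gene is alike in all libraries.

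The 12 heavy-strand mRNAs did not pass the test in either direction with all libraries. Their log2FC values lay between -0.18 (MT-ND5) and -0.031 (MT-ND4), with standard errors of 0.0836 to 0.177 and adjusted p-values of 0.356 to 0.868 (limma). The confidence intervals reached from -0.52 at the lowest to 0.30 at the highest, and each of them included 0. Without LLY-283 replicate 4 the log2FC values lay between -0.012 (MT-CYB) and 0.12 (MT-ND4L). For MT-CO1, the catalytic core of complex IV, the vehicle values were 11930.4, 11796, 12298 and 11853 TPM, and the LLY-283 values were 12632, 12325, 12363 and 8350.0 TPM. Treated replicates 1 to 3 lay above all vehicle libraries and replicate 4 far below them. For MT-ATP8 the LLY-283 values were 27055, 25744, 26146 and 16109.7 TPM, of which the first 3 lay within the vehicle range. For MT-CYB they were 3281, 3170.0, 3185 and 2288 TPM against 3198, 3205, 3300.1 and 3255 TPM with vehicle, so the groups overlapped when replicate 4 was set aside.

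MT-ND4, another membrane subunit of complex I, was called only when replicate 4 was left out. Its level was 7751, 7756, 7999.7 and 7579 TPM with vehicle and 8557, 8264, 8329 and 5684 TPM with LLY-283. Treated replicates 1 to 3 exceeded every vehicle library, and replicate 4 was lower than every vehicle library. Its log2FC was -0.031 (adjusted p = 0.868) with all libraries. Without replicate 4 it was 0.11 (SE 0.0217, adjusted p = 0.00830, limma), a mean 7.87% above vehicle. MT-CO1, MT-CO3, MT-ND1 and MT-ND2 also had treated replicates 1 to 3 above all vehicle libraries. Together these were 5 of 15 members, where 13.8% of all genes tested lay entirely above vehicle in that comparison. MT-ND6 was the single member entirely below vehicle there, where 24% of all genes were. The log2FC values of these 4 were 0.056, 0.036, 0.055 and 0.051 (adjusted p = 0.0611, 0.117, 0.0736 and 0.0651, limma) and did not pass the test. MT-ND4L, which shares its transcript with MT-ND4, was at 9623, 8242, 9877 and 8579 TPM with vehicle and at 10366, 9372, 9719.85 and 5486 TPM with LLY-283. Its groups overlapped without replicate 4 (log2FC 0.12, adjusted p = 0.241, limma).

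The lower level in LLY-283 replicate 4 was uneven over the members. Its level was 55.9% of the mean of the other treated libraries for MT-ND4L, 60.1% for MT-ND5 and 61.2% for MT-ATP8. It was 74.4% for MT-ND1, 75.7% for MT-ND3 and 93.9% for MT-ND6, and the median of the 15 members was 68.4%. The 3 lowest and MT-RNR1 (66.1%) were the same 4 genes that varied most between vehicle libraries. Among the heavy-strand mRNAs, the median was 72.0% for the 6 genes annotated with an incomplete stop codon, as in MT-ND1 and MT-ND4 above. The median was 64.2% for the 6 annotated with a whole one, which include MT-ATP6 and the 3 lowest members, MT-ND4L, MT-ND5 and MT-ATP8. The ranges, 67.8% to 75.7% and 55.9% to 72.0%, overlapped, and a link to the stop codon was not tested. Most nuclear genes lay above the members in this ratio. Over 14463 nuclear genes tested the median log2 ratio of replicate 4 to the other treated libraries was -0.021, against -0.55 for the members, and 5.39% of the nuclear genes lay below the members' median. With the nuclear genes in 5 bins of GC content, the medians lay between -0.079 in the bin poorest in GC and 0.020. In 5 bins of transcript length they lay between -0.085 in the longest and 0.045 in the shortest. The mitochondrial mRNAs have 39.6% to 47.7% GC. The 15 members are 207 to 1812 bases long, where the shortest bin of nuclear genes spans 99 to 1736 bases. The part of GC content and length in the members' values was not tested.

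**Figure D4:**
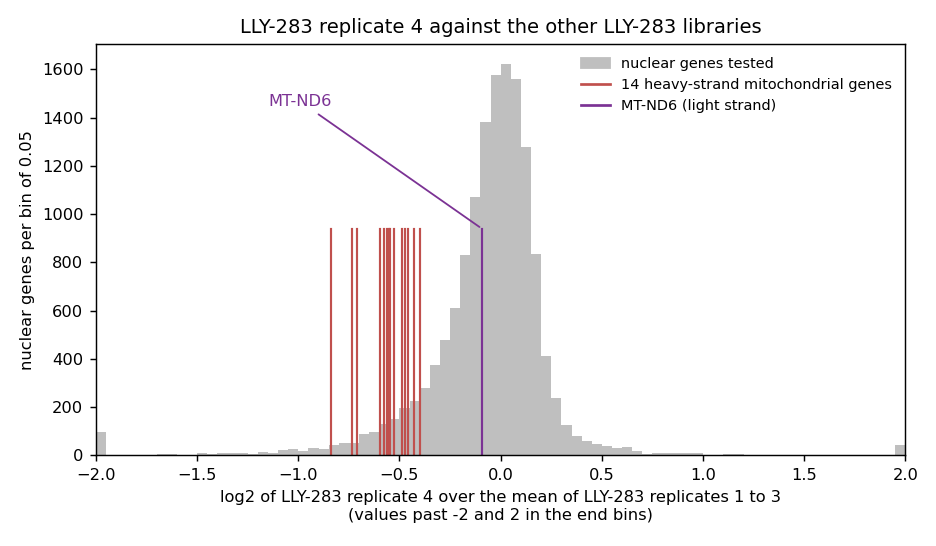
Histogram of the log2 ratio of LLY-283 replicate 4 to the mean of LLY-283 replicates 1 to 3 for 14463 nuclear genes (grey), with the 14 heavy-strand mitochondrial genes as red lines and MT-ND6 as a purple line. The members have a median of -0.55, in the left flank of the nuclear genes, and MT-ND6 lies near their centre at -0.090.

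The rRNAs of the mitochondrial ribosome are transcribed at the start of the heavy strand. MT-RNR1 (ENSG00000211459, chrM:648-1601, plus strand), the small-subunit rRNA, was at 981, 807, 728 and 879 TPM with vehicle and at 615, 692, 744 and 452 TPM with LLY-283. The groups overlapped, since LLY-283 replicate 3 exceeded vehicle replicate 3. The mean fell by 26.3%, and the log2FC was -0.46 with an SE of 0.147 and a 95% confidence interval of -0.79 to -0.13 (adjusted p = 0.0469, limma). This call was at the threshold: it was lost in 15 of the 18 alternatives, with adjusted p-values from 0.0341 to 0.127. It was lost without any 1 library other than LLY-283 replicate 3 (adjusted p from 0.0549 to 0.127), and without LLY-283 replicate 4 the log2FC was -0.31 (adjusted p = 0.0589). MT-RNR2 (ENSG00000210082, chrM:1671-3229, plus strand), the large-subunit rRNA, was at 2681, 2533, 2659 and 2683 TPM with vehicle and at 2662, 2606, 2640.0 and 1830.2 TPM with LLY-283. It did not pass the test (log2FC -0.13, adjusted p = 0.399), and without replicate 4 its log2FC was -0.0013 (adjusted p = 0.974, limma). MT-RNR1 as a share of MT-RNR2 was 36.6%, 31.8%, 27.4% and 32.8% with vehicle and 23.1%, 26.5%, 28.2% and 24.7% with LLY-283. The treated values were lower on average (25.6% ± 2.21 against 32.1% ± 3.79, SD, n = 4 each), and replicate 4 lay among them, but the groups overlapped. Without replicate 4 the treated mean was 25.9% ± 2.60 (SD, n = 3).

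The balance between complexes I and IV did not differ beyond the spread. The complex I mRNAs summed to 78.4%, 73.5%, 77.8% and 74.5% of the complex IV mRNAs with vehicle and to 78.9%, 76.8%, 78.5% and 72.4% with LLY-283. The means were 76.1% ± 2.39 and 76.7% ± 3.00 (SD, n = 4 each), and the treated mean was 78.1% ± 1.16 (SD, n = 3) without replicate 4, with values that overlapped vehicle.

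Some nuclear genes are old copies of mitochondrial DNA, and reads can match both. The table listed 402 of them, of which 57 were above 0 in any library and 5 were tested. The 3 most abundant lie near each other on chromosome 1, namely MTATP6P1 (chr1:633696-634376), MTND2P28 (chr1:629640-630683) and MTCO1P12 (chr1:631074-632616), all unprocessed pseudogenes on the plus strand. They are identical to the mitochondrial genome at 98.5%, 98.4% and 98.6% of their aligned bases, respectively. MTATP6P1 was at 954, 947, 964 and 963 TPM with vehicle and at 1003, 969.5, 991 and 704 TPM with LLY-283, so that it was low in the same library as MT-ATP6. Its level was 12.4% to 13.1% of that of MT-ATP6 in the vehicle libraries, 12.7% to 12.8% in LLY-283 replicates 1 to 3 and 13.3% in replicate 4. None of the 5 copies tested was called. How many reads each copy shares with its mitochondrial gene was not tested, so the values of these 3 copies are uncertain. MTND4P12, a tested copy of low level named after its values were seen, was not low in LLY-283 replicate 4 (1.52 TPM, against 1.15 to 1.54 TPM in replicates 1 to 3). MTND1P23, the other tested copy of low level, was at 1.28 TPM in replicate 4, against 3.08, 0 and 2.95 TPM in replicates 1 to 3.

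Nuclear genes that act on the mitochondrial genome and its RNA were described in 6 lists, 89 genes in all, of which 88 were tested (PPARGC1B was not). Of these, 20 were called higher and 8 lower, 22.7% and 9.09%, where 8.61% and 17.6% of all genes tested were called. The log2FC had a median of 0.053 over the lists and -0.047 over all genes. Without LLY-283 replicate 4 the counts were 23 higher and 9 lower, where 10.4% and 18.4% of all genes were called. Past 1.5-fold, 3 genes were called lower (3.41%) and 0 higher, where the shares of all genes were 3.48% and 0.394%. After quantile normalization 26 genes of the lists were called higher and 6 lower, where 1871 and 1820 of all genes were called. With median-of-ratios scaling these counts were 24 and 7, where 1927 and 1866 of all genes were called. Without LLY-283 replicate 4 the list medians of the log2FC lay between 0.0015 for replication, which is below 0 with all libraries, and 0.082 for stability and decay. No call named below was lost without LLY-283 replicate 4.

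**Figure D5:**
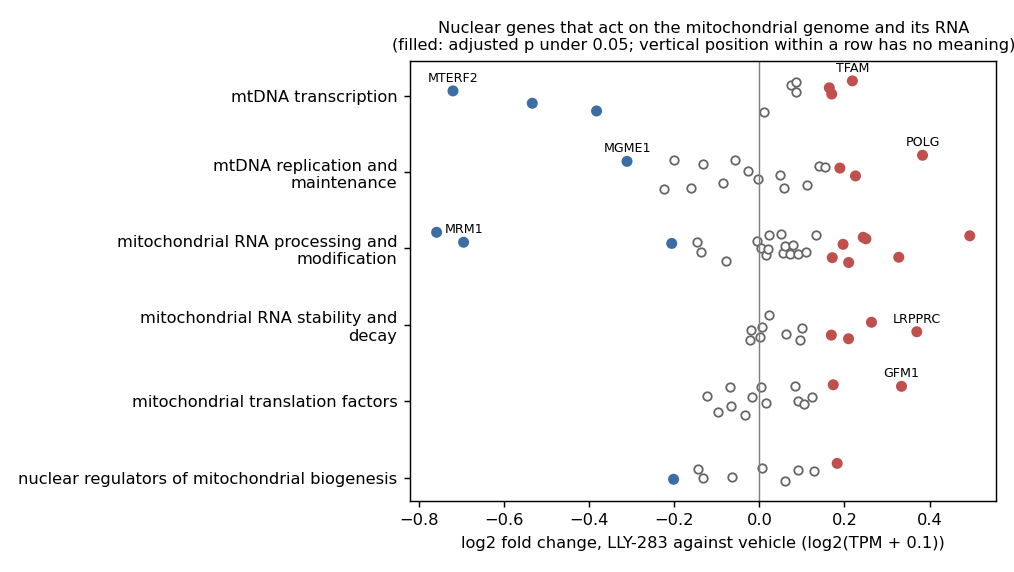
Log2 fold change of LLY-283 against vehicle for the 88 nuclear genes tested, by list, with filled points for an adjusted p-value under 0.05 (red higher, blue lower; limma). The 3 genes past 1.5-fold are decreases, a share of 3.41% against 3.48% of all genes, and the 4 called genes of the RNA stability list are increases.

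In the transcription list 3 of 10 genes were called higher and 3 lower (median log2FC 0.081). TFAM, which packs mitochondrial DNA and starts its transcription, was at 45.6, 42.6, 42.8 and 40.4 TPM with vehicle and at 49.9, 49.3, 52.1 and 48.2 TPM with LLY-283. The groups did not overlap, and TFAM had a log2FC of 0.22 (SE 0.0432, adjusted p = 0.00597, limma). MTERF2, of a family of proteins that bind mitochondrial DNA, was at 16.8, 19.8, 17.7 and 17.2 TPM with vehicle and at 10.4, 11.1, 10.5 and 11.2 TPM with LLY-283. Every treated value was lower, and MTERF2 had a log2FC of -0.72 (adjusted p = 7.98e-05, limma). POLRMT, the mitochondrial RNA polymerase, did not pass the test at 47.1 ± 4.53 against 49.9 ± 2.17 TPM (SD, n = 4 each; adjusted p = 0.358). TEFM, the elongation factor of that polymerase, fell by 0.53 on the log2 scale (adjusted p = 0.00289). TFB2M, which opens the promoter, rose by 0.17 (adjusted p = 0.0165), and TFB1M, which methylates the small-subunit rRNA, fell by 0.38 on the log2 scale (adjusted p = 0.0295), this last call being lost in 8 of 18 alternatives, among them those without vehicle replicate 2, 3 or 4 or LLY-283 replicate 1 or 2 (adjusted p from 0.0593 to 0.0811). The third higher call was MTERF4 (log2FC 0.16, adjusted p = 0.0434), whose groups overlapped. It too was lost in 8 of 18 alternatives, among them those without vehicle replicate 2, 3 or 4 or LLY-283 replicate 1 or 3 (adjusted p from 0.0726 to 0.107).

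Of the 26 genes for processing and modification of mitochondrial RNA, 7 were called higher and 3 lower (median log2FC 0.058). TRMU, which thiolates tRNAs, rose by 0.17 on the log2 scale (adjusted p = 0.00424, limma), and MTPAP, the mitochondrial poly(A) polymerase, rose from 4.96 ± 0.679 to 7.01 ± 0.792 TPM (SD, n = 4 per group; log2FC 0.49, adjusted p = 0.0124). TRMT10C and HSD17B10, subunits of the enzyme that cuts tRNAs from the precursor at the 5′ end, had log2FC values of 0.25 and 0.20 (adjusted p = 0.0135 and 0.0265), the latter lost in 6 of 18 alternatives, among them those without vehicle replicate 2, 3 or 4 or LLY-283 replicate 3 (adjusted p from 0.0577 to 0.0771). PRORP, the catalytic subunit of that enzyme, did not pass the test (log2FC 0.060, adjusted p = 0.646), nor did ELAC2, which cuts at the 3′ end (log2FC 0.078, adjusted p = 0.294). The 2 largest falls were in methyltransferases. MRM1, which acts on the large-subunit rRNA, fell from 8.76 ± 0.600 to 5.38 ± 0.493 TPM (log2FC -0.70, adjusted p = 0.000449), and TRMT61B fell from 17.4 ± 0.897 to 10.3 ± 1.42 TPM (log2FC -0.76, adjusted p = 0.000578).

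In the list for stability and decay 4 of 12 genes were called higher and 0 lower (median log2FC 0.080). LRPPRC, which with SLIRP protects mitochondrial mRNAs, was at 69.2, 73.8, 75.6 and 69.6 TPM with vehicle and at 95.1, 92.2, 95.1 and 89.9 TPM with LLY-283. All treated libraries were higher, and LRPPRC had a log2FC of 0.37 (SE 0.0378, adjusted p = 0.000237, limma). Its partner SLIRP had treated values on both sides of the vehicle range, from 237 to 272 TPM against 242 to 255 TPM, and did not pass the test (log2FC 0.023, adjusted p = 0.722). SUPV3L1, the helicase of the RNA-degrading complex, rose by 0.26 (adjusted p = 0.0118) and FASTKD2 by 0.21 (adjusted p = 0.00862), both on the log2 scale. FASTKD1 also passed (adjusted p = 0.0497), a call lost in 13 of 18 alternatives, among them those without any 1 library other than LLY-283 replicate 4 (adjusted p from 0.0699 to 0.122).

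Among the 17 genes for replication and maintenance of mitochondrial DNA, 3 were called higher and 1 lower (median log2FC -0.0027). POLG, the catalytic subunit of the mitochondrial DNA polymerase, rose from 54.5 ± 1.80 to 71.2 ± 3.17 TPM (SD, n = 4 per group; log2FC 0.38, adjusted p = 0.000274, limma). The exonuclease MGME1 fell from 28.5 ± 1.08 to 23.0 ± 0.731 TPM (log2FC -0.31, adjusted p = 0.000838). Of the 14 translation factors, 2 were called higher and 0 lower, and 2 higher and 1 lower without LLY-283 replicate 4. GFM1, an elongation factor of the mitochondrial ribosome, rose from 43.5 ± 2.36 to 54.9 ± 2.71 TPM (log2FC 0.33, adjusted p = 0.00139). Of the 9 regulators of biogenesis tested, PPRC1 rose (log2FC 0.18, adjusted p = 0.0173) and the transcription factor NRF1 fell (log2FC -0.20, adjusted p = 0.0259), a call lost in 7 of 18 alternatives, among them those without vehicle replicate 1, 3 or 4 or LLY-283 replicate 1 or 2 (adjusted p from 0.0568 to 0.0698). After quantile normalization NRF1 had a log2FC of -0.10 (adjusted p = 0.223), its smallest in any alternative. The call of PPRC1 was lost without LLY-283 replicate 2 (adjusted p = 0.05005).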

How the data were processed

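RNAseq was performed on 8 libraries of U251 cells, 4 per group. The authors captured mRNA on oligo-dT beads, used Cutadapt 1.18 for trimming, STAR for mapping (GRCh38, GENCODE release 41) and RSEM for gene levels, and the deposited values are TPM per gene and library. The submitters' processing notes name RSEM 1.3.1 and STAR 2.7.0f, whereas the paper's methods name later versions of both. TPM sums to a fixed total, so a change in abundant genes shifts all others. Depth is unknown.

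A mean of 1 TPM or more was required, and the 14478 genes that passed were tested with limma 3.58.1 (R 4.3.3) on log2(TPM + 0.1), with a mean-variance trend and no replicate block. Fold changes understate the change of low genes. The alternatives were pseudocounts, filters, scalings, forms of eBayes, a replicate block and each library left out. Positions and sequences came from GENCODE release 44 on GRCh38; nuclear copies were aligned with Biopython 1.88. Named nuclear genes are TFAM, POLRMT, LRPPRC and POLG, and the called gene of smallest p per list and direction; TEFM, TFB1M, TFB2M, MTPAP, TRMT10C, HSD17B10, PRORP, ELAC2, TRMT61B, SLIRP, SUPV3L1, FASTKD1 and FASTKD2 were named after their values were seen, as was MTERF4. The members and lists were chosen with earlier results of these data known.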

Additional observations from a re-analysis of the deposited data

Results flagged for a closer look

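A library was marked where its gap to the nearest of the other 3 in its group as a part of the group's whole range exceeded Dixon's 95% critical value for 4 samples, which chance gives in about 1 of 20 groups. Of 108 groups examined, 20 held such a library, 16 of them LLY-283 replicate 4, always as the lowest. These groups are not independent, since members of 1 genome, their sum and their copies are among them, and that library was known to stand apart when they were examined, so the count is a description. In that library the gap was 0.88 of the range for MT-ATP8, 0.899 for MT-CO2, 0.951 for MT-CO3, 0.928 for MT-CO1, 0.898 for MT-ND4, 0.908 for MT-ATP6, 0.934 for MT-ND3, 0.888 for MT-CYB, 0.948 for MT-ND2, 0.933 for MT-RNR2, 0.942 for MT-ND1 and 0.844 for MT-ND5. It was 0.899 for the share of TPM in the 37 genes, 0.889 for the nuclear copy MTATP6P1 and 0.851 for MTCO1P12. PPRC1, a nuclear regulator, was also lowest there, at 36.2 TPM (0.836 of the range). MT-ND6, MT-ND4L and MT-RNR1 did not pass this criterion.

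In the vehicle group, replicate 2 was lowest for MT-RNR2 (2533 TPM, 0.836 of the range), MTCO1P12 (14.7 TPM, 0.831) and TRMT10C (19.7 TPM, 0.919), and replicate 3 was lowest for POLG (51.9 TPM, 0.839).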

How the results depend on the processing

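MT-ND6 kept its direction and its call in all 18 alternatives (log2 fold change -0.34 to -0.28). MT-RNR1 kept its direction and lost its call in 15 (adjusted p from 0.0341 to 0.127), so the number of members called lower was 1 with a pseudocount of 1, no filter, quantile normalization, median-of-ratios scaling, scaling on nuclear genes, either other form of eBayes and the replicate block, and 1 to 2 with each library left out in turn. Over the same left-out libraries, 0 to 1 members were called higher and 4 to 15 had a fitted change below 0, in both cases the departure coming from LLY-283 replicate 4. Members that turned above 0 without that library ranged, over the left-out libraries, from -0.21 to 0.038 (MT-ATP8), -0.14 to 0.027 (MT-CO2), -0.12 to 0.036 (MT-CO3), -0.14 to 0.056 (MT-CO1), -0.19 to 0.12 (MT-ND4L), -0.087 to 0.11 (MT-ND4), -0.14 to 0.048 (MT-ATP6), -0.088 to 0.049 (MT-ND3), -0.14 to 0.051 (MT-ND2), -0.092 to 0.055 (MT-ND1) and -0.25 to 0.0049 (MT-ND5). The copies MTATP6P1 (-0.13 to 0.045), MTND2P28 (-0.18 to 0.038) and MTCO1P12 (-0.11 to 0.10) and SLIRP (-0.0085 to 0.057), which alone turned below 0, also changed sign without it. MT-ND4 also turned above 0 with quantile normalization (0.0011) and median-of-ratios scaling (0.014), and MTCO1P12 with quantile normalization (0.028).

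Over all genes, 1927 were called higher after median-of-ratios scaling and 1871 after quantile normalization, against 1247; the cause was not tested. The log2 ratio of rRNA to mRNA differed by -0.11 between groups, by -0.12 without LLY-283 replicate 4 and by -0.18 with mean log2 values in place of sums; the groups overlapped with and without that library. Replicate numbers did not pair the libraries (correlations of same-numbered deviations between -0.09 and 0.03), and with a replicate block MT-RNR1 had an adjusted p of 0.0800 and, among the nuclear genes named, FASTKD1 lost its call as well. Depth is unknown. Nothing can be said of the tRNAs listed at 0, since of the 1294 other genes of 75 bases or fewer 1 was above 0 in any library.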
